A study of Mus musculus with 12 samples.

Results

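The 40 genes described here encode the machinery that copies DNA and the enzymes that make its deoxynucleotide building blocks. They were taken as a list of gene symbols by function and matched to the Ensembl identifiers of a count table with 55536 genes, in which all 40 were found. The table holds 12 RNA-Seq libraries of megakaryocytes (MKs), the platelet-producing cells, sorted from the bone marrow (BM) and the spleen of Pf4-Cre TdTomato mice on the C57BL/6 background, in which the Pf4 promoter drives the Cre that turns on a red fluorescent protein, and in which all groups carried the same alleles. Mice received saline or an injection of cecal slurry that causes sepsis, and CD45+ Lin- Tom+ CD41+ CD42b+ cells were collected on day 5, with 300 cells per library. The groups were BM MKs after saline, BM MKs after sepsis, splenic MKs after saline and splenic MKs after sepsis, with 3 replicates in each. The label rests on Pf4-driven Cre, and a cell that had Cre at an earlier stage keeps the fluorescence.

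Replication starts at origins bound by the origin recognition complex, where CDC6 and CDT1 load the MCM helicase onto DNA and geminin restrains CDT1. CDC45 and the GINS complex then turn the MCM ring into an active helicase, polymerase alpha with primase starts each strand, and polymerases epsilon and delta extend them on the PCNA clamp, which is loaded by replication factor C (RFC). Replication protein A (RPA) covers the exposed single strands, FEN1 and DNA ligase 1 finish the lagging strand, and ribonucleotide reductase and thymidylate synthase supply nucleotides. MKs are known for endomitosis, in which DNA is replicated repeatedly without cell division, and transcription of many of these genes is known to be driven by E2F factors at the start of S phase.

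RefSeq promoter windows on GRCm38.p6, each 300 bases long from 250 bases before to 50 bases after the start, were at hand for 32 of the 40 genes. They were searched on both strands for 4 forms of the E2F motif, TTTGGCGC, TTTCCCGC, TTTCGCGC and TTTGCCGC, which can overlap when 2 forms sit on opposite strands. A match was found for 14 of the 32 genes (43.8%), compared with 704 of 27025 genes with a window (2.6%). The stretches below run from 170 bases before the start to the 30th transcribed base and are shown for genes on which the results below turn: the helicase subunits Mcm6 and Mcm5 and the polymerase epsilon subunit Pole2, which hold matches, and the clamp loader subunit Rfc5, which holds none. Capitals mark the matched letters on either strand.
Mcm6 (chr1:128359676-128359875, minus strand): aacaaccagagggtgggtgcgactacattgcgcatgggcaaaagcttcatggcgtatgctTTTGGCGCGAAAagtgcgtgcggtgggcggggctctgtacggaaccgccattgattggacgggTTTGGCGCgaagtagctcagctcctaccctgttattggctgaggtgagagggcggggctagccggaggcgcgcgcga
Mcm5 (chr8:75109339-75109538, plus strand): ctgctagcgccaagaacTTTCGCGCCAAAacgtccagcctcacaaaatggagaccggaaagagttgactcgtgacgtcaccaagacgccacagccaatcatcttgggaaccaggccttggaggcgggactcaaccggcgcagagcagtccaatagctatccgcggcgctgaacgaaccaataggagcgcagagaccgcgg
Pole2 (chr12:69228161-69228360, minus strand): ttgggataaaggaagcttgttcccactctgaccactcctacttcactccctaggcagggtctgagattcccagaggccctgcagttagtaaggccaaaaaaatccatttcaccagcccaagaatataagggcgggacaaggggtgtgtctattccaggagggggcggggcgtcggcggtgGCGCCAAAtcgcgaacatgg
Rfc5 (chr5:117388994-117389193, minus strand): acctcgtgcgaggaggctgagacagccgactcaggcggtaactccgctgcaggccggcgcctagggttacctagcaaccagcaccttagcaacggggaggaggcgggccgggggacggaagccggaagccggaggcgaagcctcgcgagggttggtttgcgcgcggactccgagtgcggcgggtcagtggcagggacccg

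By role, the letters were present for 3 of 4 licensing genes with a window (Orc1, Cdc6 and Cdt1), 4 of 5 MCM helicase genes (Mcm3, Mcm5, Mcm6 and Mcm7), 4 of 7 polymerase and primase genes (Pola1, Pole2, Pold1 and Pold3) and 1 of 3 helicase activator genes (Gins3). They were present for Rfc3 among 5 clamp and clamp loader genes and for Lig1 among the 2 Okazaki fragment genes, and for 0 of 3 RPA genes and 0 of 3 nucleotide supply genes. A match was present for 9 of 32 other replication genes (28.1%), 8 of 12 regulators of replication (66.7%) and 0 of 18 mitosis genes. The CCAAT box (CCAAT, both strands) was found for 21 of the 32 members (65.6%), for 16 of 18 mitosis genes (88.9%) and for 41.1% of all genes. These matches are descriptions of letters, not of binding.

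Total counts per library ranged from 7756762 to 27386184, and p-values below measure only the spread between these libraries, which may be technical in part. Library-to-library spread was large over all genes, at a biological coefficient of variation of 143% in edgeR. The summed level of 12 MK marker genes was between 11889 and 47743 CPM (counts scaled to the effective library size) in BM libraries and between 1227 and 3561 CPM in splenic libraries, and each of the 12 was detected in every group. The 8 B cell markers summed to between 61.0 and 266 CPM in BM and between 2900 and 10003 CPM in spleen, and the 8 plasma cell markers to between 1485 and 4697 CPM in BM and between 7761 and 80834 CPM in spleen. The 8 neutrophil precursor markers summed to between 274 and 11202 CPM in BM and between 21.8 and 309 CPM in spleen, and the 6 stem and progenitor markers to between 376 and 667 CPM in BM and between 29.0 and 257 CPM in spleen. The 6 T cell markers summed to between 7.33 and 83.9 CPM in BM and between 31.9 and 1645 CPM in spleen. The part of these transcripts in the results below was not tested. In such bulk samples, fewer cells of a type and less RNA per cell cannot be told apart.

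Replication genes were higher in BM than in spleen as a group. The summed level of the 40 genes was 2748, 3575 and 3221 CPM in BM MKs after saline and 3312, 2802 and 4088 CPM after sepsis. In splenic MKs it was 1044, 902 and 1220 CPM after saline and 2180, 1841 and 1788 CPM after sepsis. All 6 BM libraries lay above all 6 splenic libraries, the saline and sepsis libraries of BM overlapped, and every splenic library after sepsis lay above every splenic library after saline. The group means were 3181 ± 415 CPM in BM after saline, 3401 ± 648 CPM in BM after sepsis, 1055 ± 160 CPM in spleen after saline and 1936 ± 212 CPM in spleen after sepsis (SD, n = 3 each). The ratio of BM to spleen was 3.01 after saline and 1.76 after sepsis, and that of sepsis to saline was 1.07 in BM and 1.83 in spleen. As a share of each library's total, that is with scaling by library size alone, the genes took between 0.341% and 0.474% of all counts in BM and between 0.0767% and 0.184% in spleen. That scaling also moved the median log2 fold change of all genes toward BM, from -0.28 to 0.20 after saline.

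**Figure D1:**
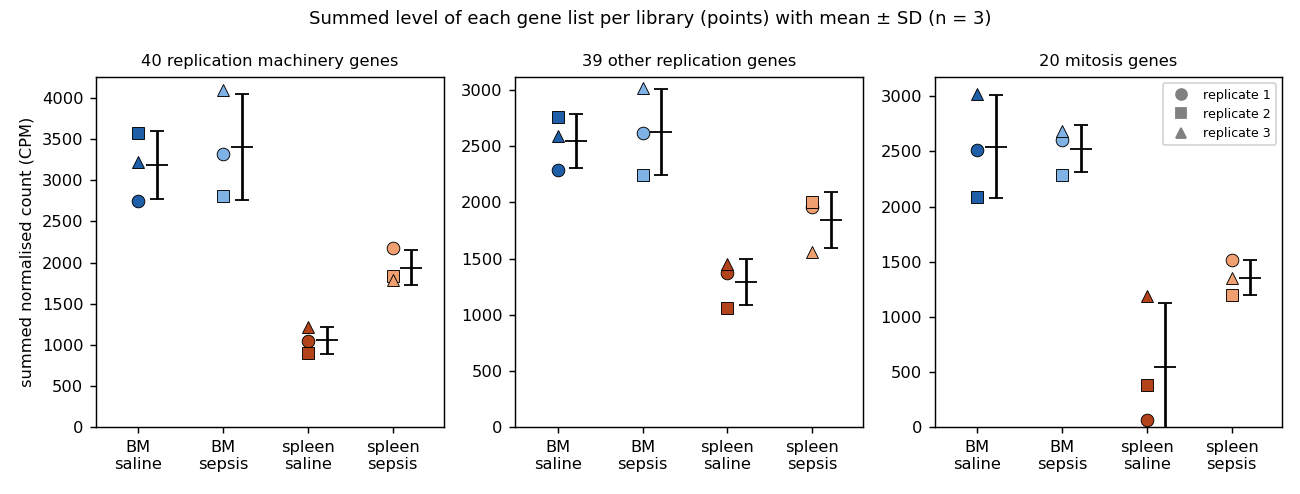
Summed normalised count (CPM) of the 40 replication machinery genes, 39 other replication genes and 20 mitosis genes in each of the 12 libraries, with the mean ± SD of 3 libraries beside the points (the bar of splenic mitosis genes after saline ends at the axis). The 6 BM points lie above the 6 splenic points in each panel, and splenic libraries after saline are the lowest group in each.

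Many of these genes were close to undetected in single splenic libraries. Of 240 values of 40 genes in 6 splenic libraries, 34 (14.2%) rested on 3 counts or fewer, which is the limit that a count of 0 allows, and these fell on 16 genes. In BM, 2 of 240 values (0.833%) did so, both of Fen1. Splenic libraries after saline held 12, 8 and 3 genes at or below that limit in replicates 1, 2 and 3, and those after sepsis held 1, 3 and 7. The lowest of the 12 libraries was a splenic one for each of the 39 genes that passed the filter on low counts, and the highest was a BM library for 34 of them. These counts and those at the limit were made for the members alone, so that the share over all genes is not known. Over the tested genes, the log2 CPM of replicates correlated at between 0.522 and 0.736 in spleen and between 0.759 and 0.870 in BM. By value, replicates also varied more in spleen, with a median coefficient of variation over the 39 genes of 32.2% in BM after saline, 33.2% in BM after sepsis, 77.7% in spleen after saline and 75.6% in spleen after sepsis. Over all tested genes the median was 82.5%, 71.9%, 103% and 102% in the same order.

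**Figure D2:**
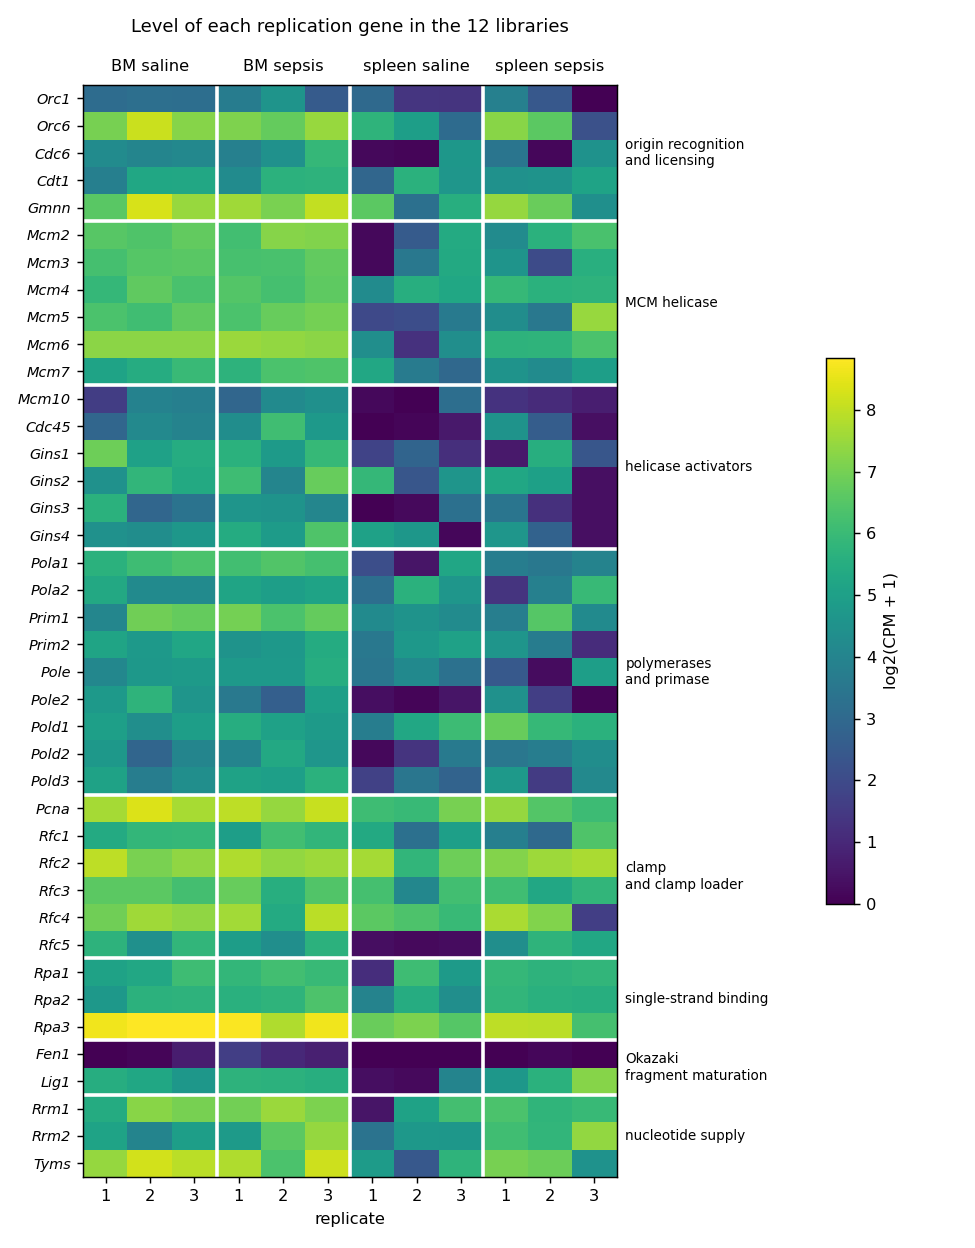
Level of each of the 40 genes, as log2(CPM + 1) on the color scale, in the 12 libraries (columns, by group and replicate), with genes (rows) ordered by role. The darkest cells outside Fen1 lie in the splenic columns, and they concern different genes in different libraries.

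The splenic library with the most replication transcripts after saline, replicate 3, also differed in other genes. The 20 mitosis genes summed to 68.5, 386 and 1190 CPM in splenic replicates 1, 2 and 3 after saline, and 10 erythroid markers to 17.7, 21.3 and 630 CPM. In replicate 3 the MK markers were also highest, at 1380, 1405 and 3561 CPM, as were the B cell markers, at 3923, 2900 and 6680 CPM, while the T cell markers were lowest, at 1645, 852 and 110 CPM. Single members differed in which library was high. Mcm2, a helicase subunit, was at 0.135, 4.79 and 41.7 CPM and Mcm3 at 0.135, 10.6 and 40.7 CPM, both highest in replicate 3, whereas Orc6 at 52.7, 30.3 and 7.51 CPM, Mcm7 at 38.1, 11.7 and 6.97 CPM and Gins4 at 32.7, 24.5 and 0.107 CPM were lowest there. Of the 39 members detected in this group, 16 were highest in replicate 3, 12 in replicate 1 and 11 in replicate 2. The part of these other transcripts was not tested. Counts of called members without this library are given below, with the values of some genes only.

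Per kilobase of exon, the small RPA subunit Rpa3 had the highest level in BM after saline, at 384 ± 28.7 RPKM (CPM per kilobase of exon), followed by the geminin gene Gmnn at 135 ± 76.9, Rfc4 at 103 ± 23.2 and Pcna at 102 ± 32.3 RPKM (SD, n = 3). The levels of the latter 3 genes did not differ beyond their spread. In spleen after saline Rpa3 was again the highest at 99.4 ± 20.1 RPKM, followed by Rfc4 at 52.0 ± 11.6, Pcna at 36.0 ± 16.2 and Gmnn at 34.5 ± 30.6 RPKM, where the latter 3 did not differ beyond their spread. At the low end in BM after saline were Pole at 2.06 ± 0.540, Mcm10 at 1.28 ± 0.878 and Fen1 at 0.103 ± 0.144 RPKM.

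After saline, 37 of the 39 tested genes had a positive log2 fold change of BM over spleen, against 43.5% of all 20263 tested genes. Their median log2 fold change was 1.62, with -0.28 over all genes. Mcm6 and Rfc5 had an adjusted p under 0.05 in edgeR's quasi-likelihood test with Benjamini-Hochberg adjustment, that is 2 of 39 genes in the direction of BM, while 0.523% of all tested genes were called in that direction and 1.25% in either. Of all calls, 106 of 253 were higher in BM, and 262 of 376 with scaling by library size alone. At an unadjusted p under 0.05 were 16 of the 39, all higher in BM, against 6.15% of all genes in that direction and 12.5% in either. In 19 of the 39 every BM library lay above every splenic library, against 11.3% of all genes.

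The MCM helicase genes held 5 of these 19. Mcm6 was at 157, 159 and 158 CPM in BM after saline and at 19.9, 1.40 and 19.7 CPM in spleen after saline. The BM libraries were nearly equal and lay far above all splenic libraries. The log2 fold change was 3.53 (SE 0.76, adjusted p = 0.0232, edgeR quasi-likelihood test). This adjusted p ranged from 0.000131 to 0.0993 over 23 alternatives, and the call was lost when only the 6 libraries compared were fitted. Mcm5 was at 79.0, 68.9 and 102 CPM in BM and at 2.84, 3.30 and 11.6 CPM in spleen, without overlap, and its log2 fold change of 3.81 (SE 0.95) had an adjusted p of 0.0566 (edgeR quasi-likelihood test). It passed the threshold with library size alone, no filter, DESeq2 and the replicate block. It also did so without BM saline replicate 2, splenic saline replicate 3 or any 1 of the sepsis libraries. It did not with RLE scaling, limma-voom or the 6 libraries alone. Mcm2, Mcm3 and Mcm4 also did not overlap between the tissues, with log2 fold changes of 2.60, 2.33 and 1.23, and Mcm7 did overlap, with 1.30. Mcm2 was at 93.4, 84.6 and 104 CPM in BM against the splenic values given above, with an adjusted p of 0.359 (edgeR quasi-likelihood test). Without splenic saline replicate 3 its log2 fold change was 5.29, with an adjusted p of 0.00997 (edgeR quasi-likelihood test; 0.00997 to 0.524 over 23 alternatives).

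Among the licensing genes, all 5 had a positive log2 fold change after saline and none was called. Gmnn was at 95.1, 318 and 179 CPM in BM and at 97.7, 8.58 and 45.4 CPM in spleen. The groups overlapped through splenic replicate 1, and the log2 fold change was 1.97 (SE 0.81). Orc6, a subunit of the origin recognition complex, had a log2 fold change of 2.63 (SE 0.91) without overlap, and the loading factors Cdc6 and Cdt1 had 1.01 and 0.15 with overlap. The Cdc6 level in spleen came from single libraries, at 0.135, 0.0825 and 24.6 CPM after saline.

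Several helicase activators had splenic values at or near the limit of detection. Cdc45 was at 6.62, 16.8 and 14.5 CPM in BM after saline and at 0, 0.0825 and 0.536 CPM in spleen, without overlap, and the log2 fold change of 5.86 (SE 1.61) had an adjusted p of 0.0918 (edgeR quasi-likelihood test). It passed the threshold with library size alone, no filter and DESeq2, and without splenic saline replicate 3 or any 1 of the splenic sepsis libraries. It did not under the other alternatives. Gins1, a GINS subunit, had a log2 fold change of 4.28 (SE 1.24) without overlap. The other GINS genes and Mcm10, which helps to activate the helicase, overlapped between tissues, with log2 fold changes between 0.19 and 2.88. For Gins2, 67.3% of the exon length overlaps Gse1, so that its counts may hold reads of that gene.

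The largest difference among the polymerase genes after saline was that of Pole2, the second subunit of polymerase epsilon. It was at 26.0, 52.8 and 23.3 CPM in BM and at 0.27, 0.0825 and 0.429 CPM in spleen. The groups were far apart, and the log2 fold change was 7.0 (SE 1.73) with an adjusted p of 0.0534 (edgeR quasi-likelihood test). It passed the threshold under 13 of 23 alternatives, among them without BM saline replicate 3 (adjusted p = 0.0457), without any 1 of the BM sepsis libraries (0.0214 to 0.0351) and without any 1 of the splenic sepsis libraries (0.00757 to 0.015), all in edgeR; over all 23 the adjusted p ranged from 3.12e-05 to 0.109. Among the catalytic subunits, Pola1, of polymerase alpha, had a log2 fold change of 2.28 without overlap, while Pole, of polymerase epsilon, had 0.92 and Pold1, of polymerase delta, had -0.54, both with overlap. Pold1 and Pola2 were the 2 tested genes with a negative value.

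Pcna, the sliding clamp, was at 198, 335 and 203 CPM in BM after saline and at 66.8, 61.1 and 131 CPM in spleen. The groups did not overlap, and the log2 fold change was 1.51 (SE 0.55, adjusted p = 0.278, edgeR quasi-likelihood test). The clamp loader genes Rfc1 to Rfc4 had smaller log2 fold changes, between 0.55 and 0.99. Rpa3 was at 398, 451 and 458 CPM in BM and at 111, 137 and 91.2 CPM in spleen, without overlap, with a log2 fold change of 1.95 (SE 0.54), whereas the larger subunits Rpa1 and Rpa2 overlapped with 0.51 and 0.71. Among the nucleotide supply genes, Tyms, thymidylate synthase, was at 172, 299 and 244 CPM in BM and at 28.0, 4.46 and 53.3 CPM in spleen. These groups did not overlap either, and the log2 fold change of 3.06 (SE 0.82) had an adjusted p of 0.0834 (edgeR quasi-likelihood test). Tyms passed the threshold with library size alone, no filter, DESeq2 and the replicate block. It also did so without splenic saline replicate 3 or any 1 of the sepsis libraries, and under no other alternative. Rrm2, the small subunit of ribonucleotide reductase, was at 33.9, 14.7 and 29.7 CPM in BM and at 9.33, 25.3 and 24.7 CPM in spleen, which overlapped, with a log2 fold change of 0.40 (SE 0.74).

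Rfc5, a small subunit of the clamp loader, was the 1 member for which all 3 splenic libraries after saline, and no other library, were at the limit of detection. It was at 51.1, 20.7 and 55.6 CPM in BM after saline, at 29.3, 19.5 and 50.2 CPM in BM after sepsis, at 0.27, 0.165 and 0.215 CPM in spleen after saline and at 19.8, 53.0 and 38.7 CPM in spleen after sepsis. The 3 splenic saline values rest on 2 counts each. The log2 fold change of BM over spleen after saline was 7.57 (SE 1.07, adjusted p = 0.00121), and that of sepsis over saline in spleen was 7.38 (SE 1.06, adjusted p = 0.00838), both in edgeR's quasi-likelihood test. As a ratio of pooled rates these were 204.6 (95% interval 93.8 to 559) and 156.3 (71.6 to 427), intervals that cover counting error only. The processed pseudogene Gm12870 is 96.2% identical to Rfc5 over 1020 aligned bases, and held 23, 0 and 27 counts in splenic replicates 1, 2 and 3 after saline, against 12 counts over the other 9 libraries. With the pseudogene's counts added to those of Rfc5, an alternative chosen after its values were seen, the log2 fold changes were 4.26 (adjusted p = 0.0508) and 4.07 (adjusted p = 0.186) in edgeR, and neither call remained. Over 23 alternatives the adjusted p ranged from 2.55e-12 to 0.0615 for the tissues and from 9.34e-12 to 0.458 for sepsis in spleen; limma-voom also ended both calls, at 0.0615 and 0.328, and a fit of the 6 libraries alone ended the latter, at 0.458.

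**Figure D3:**
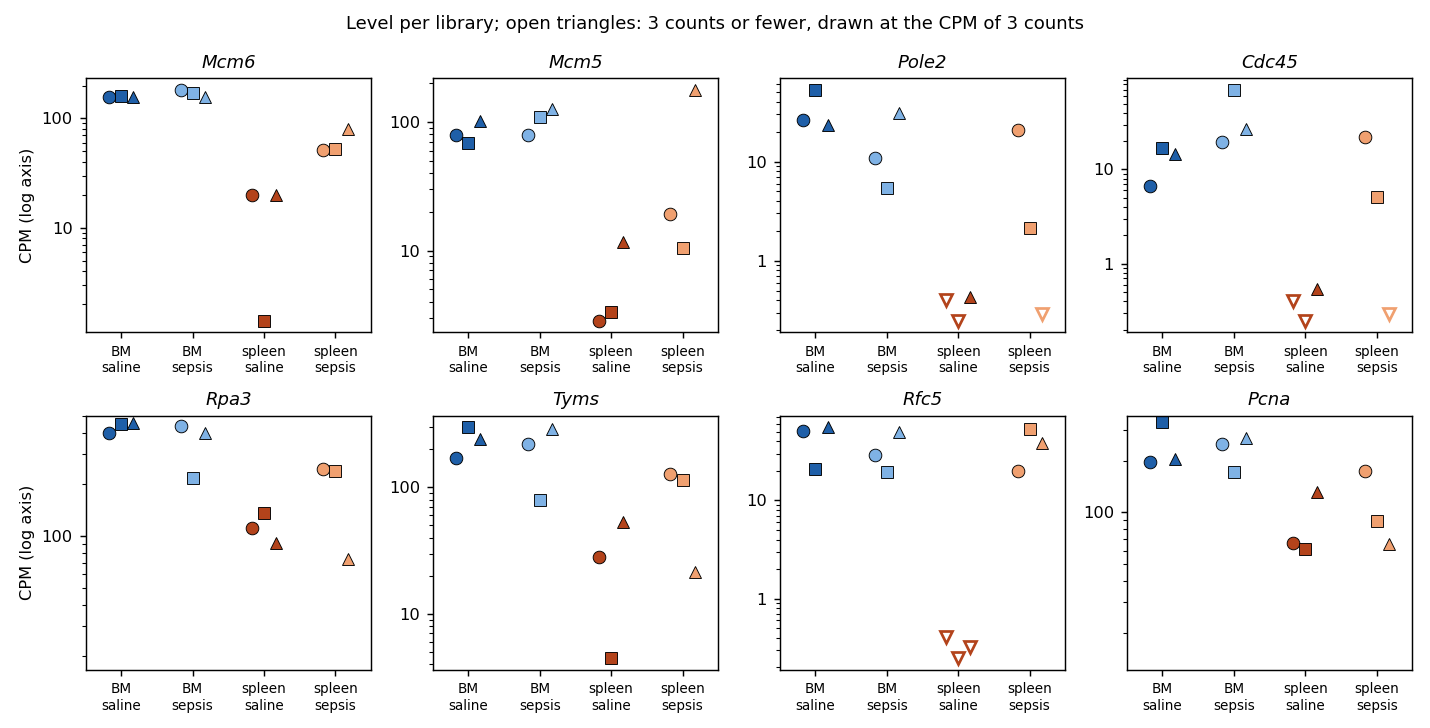
CPM on log axes of 8 genes in each of the 12 libraries, by group (circle, square and upward triangle for replicates 1, 2 and 3), with open downward triangles for values at 3 counts or fewer, drawn at the CPM of 3 counts. Rfc5 is at that limit in all 3 splenic libraries after saline, Pole2 and Cdc45 in 2 of them and in 1 after sepsis, and Rpa3 and Pcna in no library.

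The count of 2 called genes after saline moved when single libraries were left out. It was 4 without BM saline replicate 2, 5 without BM sepsis replicate 1 or 3, 6 without BM sepsis replicate 2, 8 without splenic saline replicate 3, 7 without splenic sepsis replicate 1 or 2 and 9 without splenic sepsis replicate 3. Without splenic saline replicate 3 the 8 were Cdc45, Lig1, Mcm2, Mcm5, Mcm6, Pola1, Rfc5 and Tyms. Removing a library lowered the count in no case. Calls over all genes moved too, from 253 of 20263 to between 197 and 467. They were 419 of 24808 without splenic saline replicate 3 and 467 of 25900 without splenic sepsis replicate 3. Without BM saline replicate 3 they were 197 of 26112. The filter on low counts was run anew in each of these fits, and between 23354 and 26112 genes were tested instead of 20263. What the missing library and what the changed filter did to the count cannot be told apart.

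After sepsis, BM lay above spleen for 36 of the 39 genes by sign, with 45.1% of all tested genes positive, and no member was called in either direction, with 0.597% of all genes called higher in BM, 1.18% lower and 1.78% in either. In edgeR's quasi-likelihood test 2 members, both higher in BM, had an unadjusted p under 0.05, against 5.84% of all genes in that direction and 12.9% in either, and DESeq2 and limma-voom also called 0 members. This count of 2 moved with the libraries and the method. It was 1 without BM saline replicate 1 or 3 or any 1 of the BM sepsis libraries, 5 without splenic saline replicate 1 or 3, 4 without splenic saline replicate 2, 6 without splenic sepsis replicate 1 and 7 without splenic sepsis replicate 3, and it was 13 with scaling by library size alone and 15 in limma-voom. The share of all genes at an unadjusted p under 0.05 is not known for these alternatives. The median log2 fold change was 1.07, with -0.18 over all genes. The libraries did not overlap for 10 members with BM above (11% of all genes) and for 1 member with BM below (7.02% of all genes).

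The smallest p in this comparison belonged to Pola1, the catalytic subunit of polymerase alpha, at 70.3, 85.9 and 73.9 CPM in BM and at 12.4, 10.6 and 14.7 CPM in spleen after sepsis. Both groups were tight and did not overlap, and the log2 fold change was 2.61 (SE 1.02, adjusted p = 0.317, edgeR quasi-likelihood test). Mcm7 was at 52.0, 79.2 and 84.3 CPM in BM and at 22.5, 18.3 and 30.4 CPM in spleen, without overlap, with a log2 fold change of 1.60 (SE 0.75). Mcm6 was at 182, 171 and 157 CPM in BM and at 51.7, 52.5 and 80.8 CPM in spleen, without overlap, with 1.46 (SE 0.70). The clamp and clamp loader genes had a median log2 fold change of 0.50 over 6 genes, and Rfc5 was at -0.17.

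For some genes single splenic libraries after sepsis were high. Mcm5 was at 79.0, 110 and 126 CPM in BM and at 19.2, 10.5 and 178 CPM in spleen, where replicate 3 lay above every BM library. Mcm2 was at 71.0, 148 and 143 CPM in BM and at 18.1, 48.9 and 78.5 CPM in spleen, with a log2 fold change of 1.32 (SE 1.02) and overlap between replicate 1 of BM and replicate 3 of spleen. Lig1, the ligase that seals the lagging strand, was at 51.5, 50.4 and 45.6 CPM in BM and at 24.5, 48.5 and 149 CPM in spleen, with a log2 fold change of -0.59 (SE 1.10). These 3 genes had their highest splenic value in the same library. That library, splenic sepsis replicate 3, also had the lowest sums of B cell markers (2980 CPM, against 8765 and 10003 CPM) and of plasma cell markers (7761 CPM, against 30902 and 35669 CPM) in its group, and the part of this in the result was not tested. Other genes were lowest in that library within the group, among them Orc6 at 3.59 CPM against 152 and 97.2 CPM, Rfc4 at 2.13 CPM against 211 and 142 CPM, and Gins2, Gins3 and Gins4 at 0.291 CPM each. Of the 40 members, 21 were highest within this group in replicate 1, 15 in replicate 3 and 4 in replicate 2.

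Pcna was at 250, 171 and 270 CPM in BM and at 174, 88.6 and 65.5 CPM in spleen after sepsis, which overlapped narrowly, with a log2 fold change of 1.07 (SE 0.54). Gmnn was at 190, 134 and 258 CPM in BM and at 174, 113 and 20.2 CPM in spleen, with overlap and 0.93 (SE 0.78). Rrm2 was at 27.4, 97.4 and 175 CPM in BM and at 69.3, 55.5 and 168 CPM in spleen. These ranges covered each other, and the log2 fold change of 0.03 (SE 0.73) took the opposite sign under 8 of 23 alternatives. Pold1 was the 1 member that did not overlap in the other direction, at 44.3, 32.5 and 27.0 CPM in BM and 110, 59.6 and 49.6 CPM in spleen, and the log2 fold change of -1.08 (SE 0.72) had an adjusted p of 0.508 (edgeR quasi-likelihood test).

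**Figure D4:**
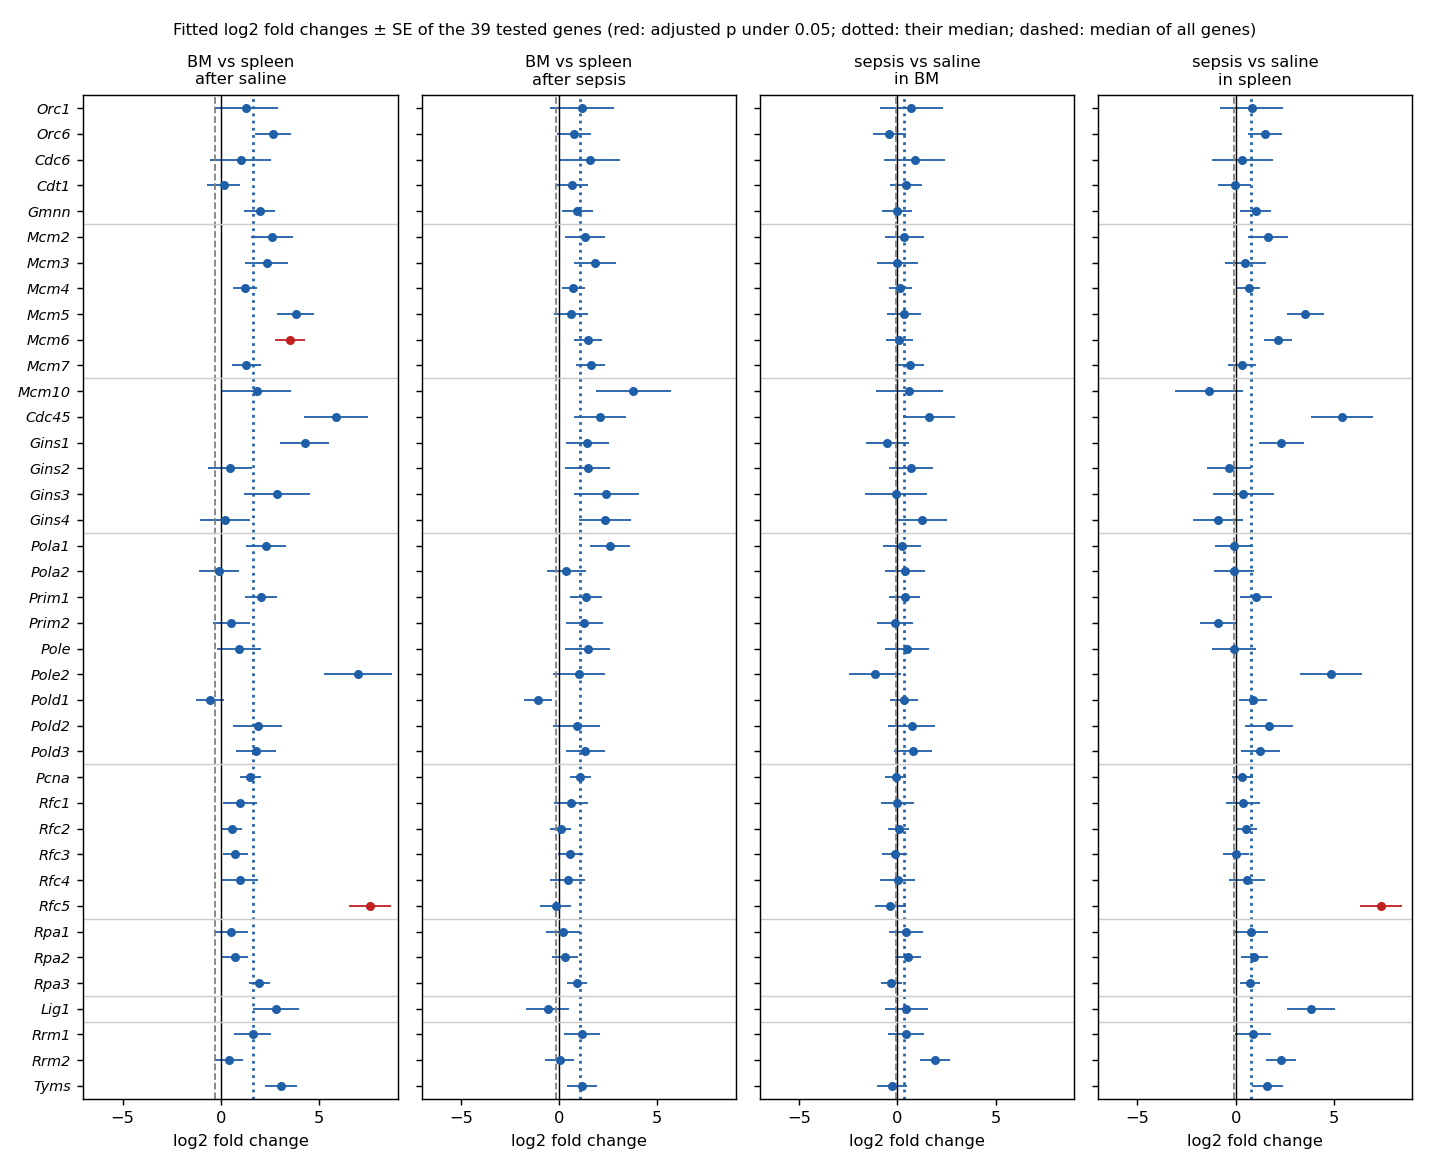
Log2 fold changes (points) with SE (bars) of the 39 tested genes, ordered by role, in the 4 pairwise comparisons; the dotted line is their median and the dashed line the median of all tested genes. The points sit right of the dashed line for most genes in both tissue comparisons and in the spleen after sepsis, and near it in BM after sepsis; the called genes, in red, are Rfc5 and Mcm6.

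Averaged over both treatments, 7 of the 39 genes were higher in BM at an adjusted p under 0.05 and none was lower, while 2.07% of all tested genes were called higher in BM, 2.68% lower and 4.75% in either direction (edgeR quasi-likelihood test with Benjamini-Hochberg adjustment). The 7 genes came from 6 of the 8 roles: the helicase genes Mcm6 (log2 fold change 2.50, SE 0.51, adjusted p = 0.00546) and Mcm5 (2.21, SE 0.63, adjusted p = 0.0489), the helicase activator Cdc45 (3.96, SE 1.03, adjusted p = 0.0299), Pole2 (4.01, SE 1.06, adjusted p = 0.0323), Rfc5 (3.70, SE 0.63, adjusted p = 0.00119), Rpa3 (1.43, SE 0.38, adjusted p = 0.0309) and Tyms (2.11, SE 0.56, adjusted p = 0.0329). A positive value was found for 38 of the 39, against 46.9% of all genes, and an unadjusted p under 0.05 for 21, all higher in BM, against 8.85% of all genes in that direction and 19.3% in either. Of all calls, 419 of 962 were higher in BM, and 1091 of 1515 with scaling by library size alone. The median was 1.38, with -0.13 over all genes. Mcm3, Mcm6 and Pola1 were the 3 genes for which all 6 BM libraries lay above all 6 splenic libraries, a pattern that 2.56% of all genes showed. This average uses the same libraries as the comparisons within each treatment and is not separate evidence.

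Of these calls, those of Mcm6 and Tyms held in all 22 alternatives run, with adjusted p between 8.97e-05 and 0.00811 for Mcm6 and between 0.0011 and 0.04 for Tyms, whose counts carry the doubt about similar stretches in other genes given below. Rfc5 was lost when its pseudogene's counts were added (log2 fold change 2.05, adjusted p = 0.093, edgeR). Cdc45 was lost without BM sepsis replicate 2 (adjusted p = 0.114, edgeR), the library in which it was highest at 69.8 CPM, and Pole2 without BM saline replicate 2 (0.0674) or BM sepsis replicate 3 (0.0759). Mcm5 was lost without BM saline replicate 3 (0.0542), with RLE scaling (0.0829), without BM sepsis replicate 3 (0.0516) or splenic saline replicate 2 (0.0655), and with a stricter filter (0.0576). Rpa3 was lost without any 1 of the BM saline libraries (0.0585, 0.0608 and 0.0754), BM sepsis replicate 1 (0.0918) or 3 (0.0783), with RLE scaling (0.056), and without splenic saline replicate 3 (0.0588). Over the 22 alternatives the adjusted p reached at most 0.0829 for Mcm5, 0.0918 for Rpa3, 0.0759 for Pole2 and 0.114 for Cdc45. The count of 7 rose to 11 without splenic saline replicate 1 or splenic sepsis replicate 1 and to 14 without splenic saline replicate 3. Over all genes, calls went from 962 of 20263 to 1130 of 25952, 1063 of 25324 and 1151 of 24808 in the same order.

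Sepsis was next compared with saline within each tissue. In spleen, replication genes were higher after sepsis by sign for 31 of the 39, against 47.4% of all genes, and Rfc5 was the 1 member called, while 0.0592% of all tested genes were called higher after sepsis and 0.158% in either direction (edgeR quasi-likelihood test). The median log2 fold change was 0.77, with -0.08 over all genes. An unadjusted p under 0.05 was found for 7 members, all higher after sepsis, against 13.1% of all genes in either direction and 5.25% in that one. This count was 13 without splenic saline replicate 3, 11 without splenic sepsis replicate 3, and 4 in limma-voom and with the 6 libraries alone. The share of all genes under these alternatives is not known. In 6 members every library after sepsis lay above every library after saline (Mcm4, Mcm6, Rfc5, Rpa2, Lig1 and Rrm2), against 4.95% of all genes.

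Mcm5 and then Cdc45 followed Rfc5 in order of p. Cdc45 was at 22.3, 5.15 and 0.291 CPM in spleen after sepsis against 0, 0.0825 and 0.536 CPM after saline, and replicate 3 after sepsis lay within the saline range. The log2 fold change of 5.41 (SE 1.58) had an adjusted p of 0.28 (edgeR quasi-likelihood test), and of 22 alternatives, over which it ranged from 0.00436 to 0.596, DESeq2 alone called it. Mcm5 was between 2.84 and 11.6 CPM after saline and at 19.2, 10.5 and 178 CPM after sepsis, which overlapped, and its log2 fold change of 3.54 (SE 0.94) had an adjusted p of 0.217 (edgeR quasi-likelihood test). Mcm5 passed it without splenic saline replicate 3 (adjusted p = 0.0498), splenic sepsis replicate 1 (0.0452) or replicate 2 (0.0442) in edgeR, with adjusted p between 0.00437 and 0.78 over 23 alternatives. Without splenic sepsis replicate 3, where it was highest, its log2 fold change was 1.36. Lig1 had a log2 fold change of 3.84 (SE 1.23) with libraries that did not overlap, from 0.27, 0.165 and 15.0 CPM after saline to the values given above. Mcm6 was 2.17 (SE 0.72) and Rrm2 was 2.30 (SE 0.77), both without overlap, and Pole2 was 4.87 (SE 1.58) with overlap. The count of called members was 3 without splenic saline replicate 3 (Lig1, Mcm5 and Rfc5), beside 138 of 24808 genes called. It was 2 without splenic sepsis replicate 1 or 2 (Mcm5 and Rfc5), beside 74 of 25324 and 52 of 24956 genes.

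The medians in spleen differed in size by role, a difference that was not tested. The 6 clamp and clamp loader genes had a median log2 fold change of 0.46 in spleen, and those of the 6 MCM genes, the 3 nucleotide supply genes and the 6 helicase activators were 1.15, 1.62 and 0.04. Of the 8 genes with a negative value, Mcm10 was the lowest at -1.34 (SE 1.74), followed by Gins4 at -0.91 and Prim2, a primase subunit, at -0.88, and none was called. Summed B cell markers were between 2900 and 6680 CPM after saline and between 2980 and 10003 CPM after sepsis in spleen, summed plasma cell markers were between 46743 and 80834 CPM and between 7761 and 35669 CPM, and summed MK markers were between 1380 and 3561 CPM and between 1227 and 2306 CPM. The plasma cell sum did not follow most of its genes. By single genes, 6 of the 8 plasma cell markers had a positive log2 fold change after sepsis, with a median of 0.50, and none was called. Summed stem and progenitor markers were between 150 and 257 CPM after saline and between 29.0 and 76.5 CPM after sepsis, without overlap. The part of these transcripts in the result was not tested.

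In BM no member was called after sepsis, and 0% of all tested genes were called by edgeR's quasi-likelihood test; 1 member had an unadjusted p under 0.05, higher after sepsis, against 0.957% of all genes in that direction and 3.54% in either (0 members without BM saline replicate 2 or BM sepsis replicate 3, and 3 with the 6 libraries alone), and DESeq2 and limma-voom also called 0 members. By sign 27 of 39 were higher after sepsis, against 45.9% of all genes, with a median log2 fold change of 0.36 against -0.08. In 3 members every sepsis library lay above every saline library (Cdc45, Gins4 and Lig1), against 4.79% of all genes. The member with the smallest p was Rrm2, at the values given above, where BM replicate 1 after sepsis lay inside the saline range and replicates 2 and 3 lay above it. For Rrm2 the log2 fold change of 1.93 (SE 0.76) had an adjusted p of 1 (edgeR quasi-likelihood test). Cdc45 was at 19.4, 69.8 and 26.6 CPM after sepsis against 6.62, 16.8 and 14.5 CPM after saline, with 1.61 (SE 1.30), and Gins4 at 42.0, 28.0 and 83.6 CPM against 21.2, 19.4 and 24.9 CPM, with 1.23 (SE 1.28). Summed neutrophil precursor markers were between 274 and 886 CPM in BM after saline and between 2657 and 11202 CPM after sepsis. Summed B cell markers were between 164 and 266 CPM after saline and between 61.0 and 96.4 CPM after sepsis, and summed erythroid markers between 161 and 465 CPM and between 62.5 and 98.5 CPM. None of these 3 sums overlapped between the treatments. By single genes, 3 of the 9 tested erythroid markers had a positive log2 fold change after sepsis, with a range of -3.09 to 8.55. A positive value was found for 1 of the 8 B cell markers and for all 8 neutrophil precursor markers. The part of these transcripts in the values of the members was not tested.

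The log2 fold change of sepsis over saline was higher in spleen than in BM for 29 of the 39 members. It was higher in BM for 10 of the 39, against 48.5% of all tested genes. The quasi-likelihood test of that difference in edgeR called no member, with 0% of all tested genes called. The interaction, coded as the change in BM minus the change in spleen, had an unadjusted p under 0.05 for 5 members (Mcm5, Mcm6, Pole2, Rfc5 and Lig1), all negative, against 7.68% of all genes in either direction, and for 11 members without splenic saline replicate 3. The share of all genes with negative values alone, and that without this library, are not known. Rfc5 had the smallest p, with -7.74 (SE 1.28, adjusted p = 0.0764, edgeR quasi-likelihood test), and DESeq2 called 1 member and limma-voom 0. With single libraries left out, the count was 2 without splenic saline replicate 3 (Lig1 and Rfc5), and 1 without BM saline replicate 2 or 3, BM sepsis replicate 1 or 3, splenic saline replicate 1 or any 1 of the splenic sepsis libraries. In these fits between 10 and 48 of all tested genes were called. The 4 pairwise comparisons share libraries, so that the low splenic saline values enter the tissue difference after saline, the change in spleen and the interaction alike. Averaged over tissues, Rfc5 was the 1 member called after sepsis (log2 fold change 3.51, SE 0.63, adjusted p = 0.035, edgeR quasi-likelihood test), against 0.0247% of all genes in that direction and 0.0691% in either; 6 members had an unadjusted p under 0.05, all higher after sepsis, against 3.29% of all genes in that direction and 10.2% in either (12 members without splenic saline replicate 3), and 36 of 39 were positive, against 47.1% of all genes. The adjusted p of Rfc5 passed 0.05 in edgeR when BM saline replicate 1 (0.0846), 2 (0.0713) or 3 (0.0586) or BM sepsis replicate 3 (0.0771) was left out. It also did so with RLE scaling (0.0578), the replicate block (0.0505) or the pseudogene's counts added (0.349) in edgeR, and in limma-voom (0.329). The highest adjusted p over 22 alternatives was 0.349. The count of called members was 2 without splenic saline replicate 3 (Lig1 and Rfc5), beside 83 of 24808 genes called.

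Other genes of the pathway had positive medians of smaller size. Of 39 other replication genes tested, such as further polymerase, checkpoint and nucleotide genes, 28 were positive for BM over spleen after saline with a median of 0.92. Clspn, which encodes the checkpoint adaptor claspin, was the 1 called (log2 fold change 7.28, SE 1.53, adjusted p = 0.0194, edgeR quasi-likelihood test). Averaged over treatments 4 of the 39 were called higher in BM (Clspn, Dut, Dctd and Dnmt1), beside 2.07% of all genes, and 1 was called lower, beside 2.68% (Pold4, the smallest subunit of polymerase delta, at -1.90, SE 0.53, adjusted p = 0.0421, edgeR quasi-likelihood test). Of these, Dctd, the deoxycytidylate deaminase that feeds thymidylate synthesis, was at 4.63 (SE 0.95, adjusted p = 0.00542) and Dut, which removes dUTP, at 1.78 (SE 0.44, adjusted p = 0.0222), in edgeR's test. Of 16 regulators of replication, 13 were positive after saline with a median of 1.03 and 1 was called, the transcription factor gene E2f3 (4.96, SE 1.12, adjusted p = 0.0328, edgeR quasi-likelihood test).

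The 20 mitosis genes, which the members' own list does not include, had a larger median than the members in both tissue comparisons, 2.19 after saline and 1.16 after sepsis, and all 20 were positive after saline with none called in edgeR and 11 at an unadjusted p under 0.05, beside 6.15% of all genes in that direction. Their summed level was 4.63 times higher in BM than in spleen after saline, where the 3.01 of the members and the 1.97 of the other replication genes stand beside it. Averaged over treatments 4 of the 20 mitosis genes were called higher in BM (Ccnb2, Kif11, Tpx2 and Nusap1), beside 2.07% of all genes. In spleen after sepsis their median log2 fold change was 1.42 and that of the other replication genes 0.38, with 0 called in either list in edgeR. At an unadjusted p under 0.05 were 6 of 20 and 5 of 39, all higher after sepsis, beside the 5.25% of all genes given above.

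Members with and without the E2F letters had these medians, set side by side without a test. The 14 tested genes with a match had a median log2 fold change of 2.04 for BM over spleen after saline and the 17 tested genes with a window and no match had 1.83, with ranges of -0.54 to 7.0 and -0.10 to 7.57. For sepsis over saline in spleen the medians were 0.66 and 0.95. The called genes Mcm6, Mcm5 and Pole2 held the letters shown above, whereas Rfc5, Cdc45, Rpa3 and Tyms held none in this window.

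Counts of some members may include or lack reads of other loci. Fen1, which removes the flaps of lagging strand fragments, did not pass the filter, with 0, 0.0994 and 0.646 CPM in BM after saline, 2.15, 1.02 and 0.702 CPM in BM after sepsis, 0 in all splenic libraries after saline and 0, 0.112 and 0 CPM in spleen after sepsis. Of its exon length 84.2% overlaps Tmem258 and Gm10143 on the other strand, and the library kit does not mark the strand, so that how many of its reads were set aside in counting is unknown. Smaller shares overlap other genes for Rfc2 (15.1%, Lat2), Rfc4 (12.7%, Eif4a2), Mcm7 (12.6%, among them Ap4m1), Orc1 (10.8%, Gm12743) and Rfc5 (10.7%, Wsb2), among others. How reads in these stretches were counted is unknown too. Near-identical copies of at least 95% over at least 200 bases were searched among annotated transcripts of other loci. They were found for 6 members (Cdc6, Mcm7, Pcna, Rfc5, Rrm2 and Tyms), and copies outside annotated transcripts were not searched. Their processed pseudogenes held few counts beside the members themselves, such as 46 for Pcna-ps2 against 28413 for Pcna and 40 for Tyms-ps against 24336 for Tyms, summed over the 12 libraries. The exception within a group was Rfc5 in spleen after saline, where Gm12870 held 50 counts against 6 for Rfc5. Adding the pseudogene counts to the members, in the comparisons above, changed no member's call other than that of Rfc5. Tyms also shares stretches of 201 to 361 aligned bases with 18 genes that are not pseudogenes, and some of these held many counts, such as 36826 for Cd200r3, 7053 for Reep3 and 3097 for Map3k2. Whether reads of these genes were counted for Tyms, or the reverse, is unknown, so that the values of Tyms are uncertain to that extent.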

How the data were processed

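RNA was measured in 12 libraries of 300 sorted MKs each. The authors deposited a table of whole-number counts per gene and library, not normalized, made with SMART-Seq HT and Nextera XT kits; the submitters' processing notes name STAR 2.7.2b, R 3.6.1, DESeq2 1.26 and GRCm38, while neither the annotation nor how reads were assigned to genes was given in the sources used here. All 55536 identifiers were found in GENCODE M21 on GRCm38, which gave exon lengths and overlaps, so that these hold only if that annotation fits the counting. Groups and replicates were taken from the labels.

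Genes were kept with filterByExpr (minimum count 10; 20263 genes), scaled with TMM factors and tested with edgeR 4.0.16 (R 4.3.3), with 1 mean for each of the 4 groups and 8 residual degrees of freedom, by quasi-likelihood F tests with Benjamini-Hochberg adjustment over all tested genes. Each SE was obtained as the absolute log2 fold change over the square root of its F statistic. The same TMM factors entered the CPM. Counts of 3 or fewer were read as the limit of a count of 0. The steps were run on simulated counts with 1 mean per gene, to which large changes were added in BM after saline. That run checked the code alone. It does not show how well changes of the members' median size, or values near the limit, are found. Copies were searched among GENCODE M21 transcripts with blastn 2.17.0, and figures were made with matplotlib 3.10.9.

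Alternatives were RLE factors, library size alone, leaving out the segment genes of immunoglobulins and T cell receptors, no filter, at least 10 counts in 6 libraries, DESeq2 1.42.0, limma-voom (limma 3.58.1) with quality weights, a replicate block, the 6 libraries of a comparison alone and each library left out. Where libraries were left out or only 6 were fitted, the filter and the scaling were run anew, so that the set of tested genes changed too. Shares of all genes at an unadjusted p under 0.05 were kept for the main fit alone. Thinning to 7756762 counts per library and adding pseudogene counts to their members were chosen after the data were seen. The members and the lists were chosen with earlier results of these data known. Values per library are given for called members, for the 3 members with the smallest p in each pairwise comparison, and for Mcm2, Pcna, Gmnn and Rrm2; others named with values were chosen after these were seen.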

Additional observations from a re-analysis of the deposited data

How the results depend on the processing

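Splenic libraries differed widely from each other, and many splenic values rested on 3 counts or fewer. The 18 correlations between the deviations of same-numbered libraries lay between -0.0566 and 0.0447, and 3 of 12 libraries were closest to their own number, so that the numbers were not read as pairs. With the replicate block, 5 members were called after saline, 11 averaged over treatments and 0 averaged over tissues. After saline, where 2 were called, 8 were called with library size alone, with no filter and with DESeq2, and 1 with limma-voom and with pseudogene counts added; leaving out a library gave 2 to 9. For sepsis in spleen, where 1 was called, 2 were called with no filter, 5 with DESeq2, and 0 with limma-voom, with the 6 libraries alone and with pseudogene counts added; leaving out a library gave 1 to 3. For the interaction, where 0 were called, no filter and DESeq2 called 1, and leaving out a library gave 0 to 2. Averaged over treatments, where 7 were called, 15 were called with library size alone and 12 with no filter and with limma-voom, and leaving out a library gave 5 to 14. Averaged over tissues, where 1 was called, 3 were called with DESeq2 and 0 with RLE scaling, limma-voom and added pseudogene counts, and leaving out a library gave 0 to 2. The members' median moved to 1.72 after sepsis with library size alone, and averaged over treatments to 1.93 with library size alone and to 2.0 with limma-voom. The median of all genes after saline moved from -0.28 to -0.54 with RLE scaling and to 0.20 with library size alone, and the members' median stood 1.90, 1.91 and 1.85 above it. Rrm2 between tissues after sepsis (0.03) was at -0.16 with RLE scaling and DESeq2, -0.063 with the stricter filter, -0.052 with the block, -0.0020 with the 6 libraries alone and between -0.62 and 0.70 with a library left out. Over all genes, calls after saline were 253 in edgeR, 1312 with DESeq2 and 529 with no filter, and after sepsis 361, 1472 and 595, with 724 in limma-voom. In spleen they were 32, with 986 in DESeq2, 187 with no filter 20 with the stricter filter, and 0 in limma-voom and with the 6 libraries alone; in BM they were 0, with 206 in DESeq2 and 81 with no filter. The interaction had 0, with 495 in DESeq2 and 130 with no filter. Averaged over treatments there were 962, with 2615 in DESeq2, 1515 with library size alone and 1517 in limma-voom, and averaged over tissues 14, with 676, 171 with no filter and 1 in limma-voom. Library size alone turned the split of calls after saline from 106 of 253 higher in BM to 262 of 376. The causes of these differences were not tested.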
